A study of Mus musculus with 76 samples.

Results

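Macrophages and the cells related to them were followed through 41 genes that mark them, equip them or serve antigen presentation, out of 54232 genes in the raw count table. The genes were taken by name, with earlier results of these data known, and each was found in the table. They fall into 8 roles: 7 genes of macrophage identity and growth factor reception, 3 complement C1q subunits, 6 pattern recognition and scavenger receptors, 5 Fc receptors and adaptors, 4 chemokine receptors and integrins, 6 lysosomal, lytic and oxidase genes, 5 genes of leukocytes in general, and 5 genes of MHC class II antigen presentation.

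The study asked how signalling by the Na/K-ATPase in adipose tissue bears on the heart disease of kidney failure. RNA was sequenced from 3 whole tissues, heart, kidney and visceral fat (visceral adipose, VFAT), taken from male Fox Chase SCID mice (CB17/Icr-Prkdcscid/IcrlcoCrl) at 12 weeks of age. All arms share this immune-deficient strain: the Prkdc mutation leaves the animals without working T and B cells, while macrophages, neutrophils and NK cells are made. The 5 arms were sham surgery without transplantation (Sham), partial nephrectomy without transplantation (PNx), and partial nephrectomy with transplantation of Control Cells (control cells), of Lenti-adipo-NaKtide cells (NaKtide cells) or of Lenti-adipo-scrambled cells (scrambled cells). NaKtide is a peptide made to keep the pump from signalling through Src, a tyrosine kinase, and the scrambled peptide is its control. No arm received cells without partial nephrectomy. The labels do not say what the control cells carry, which promoter drives the peptide or which cells took it up. There were 5 samples in each tissue and arm except VFAT scrambled cells, with 4. Nothing in the labels says that the samples of an arm came from separate animals, so the p-values measure the spread between these samples.

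Tissue macrophages depend on the receptor CSF1R for survival and on the transcription factor PU.1, the product of Spi1, for their identity. They take up particles through Fc and scavenger receptors, digest them with lysozyme and cathepsins, secrete C1q, which starts the classical complement pathway, and show peptides to helper T cells on MHC class II molecules. In heart, kidney and fat they clear dead cells and spent lipid, and blood monocytes that carry CCR2 add to them after injury.

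Promoter sequences are shown for members whose reads or changes the results turn on, from RefSeq on build GRCm38.p6, where 30 of the 41 members had an entry. Lyz1 and Lyz2 are neighbouring lysozyme genes on chromosome 10 that share 16.1% and 15.4% of their 50-base stretches with each other, so reads may be split between them. The stretches upstream of both genes, on the minus strand at chr10:117292918-117292988 and chr10:117282322-117282392, differ at the 9 bases of 71 set in capitals. Over the whole 250-base windows, compared position by position, only 152 bases were the same.
Lyz1: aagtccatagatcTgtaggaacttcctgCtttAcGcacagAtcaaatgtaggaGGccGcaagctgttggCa
Lyz2: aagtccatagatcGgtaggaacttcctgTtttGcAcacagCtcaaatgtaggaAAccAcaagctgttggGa

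H2-Aa and H2-Eb1 encode an alpha and a beta chain of MHC class II. They were higher in kidney and fat after partial nephrectomy, with limits in both tissues that are described further on. The 250 bases before their start sites, at chr17:34287824-34288073 on the minus strand and chr17:34305617-34305866 on the plus strand, hold the letters CTGATTGG (in capitals), those of the Y box of MHC class II promoters, 51 and 62 bases before the start.
H2-Aa: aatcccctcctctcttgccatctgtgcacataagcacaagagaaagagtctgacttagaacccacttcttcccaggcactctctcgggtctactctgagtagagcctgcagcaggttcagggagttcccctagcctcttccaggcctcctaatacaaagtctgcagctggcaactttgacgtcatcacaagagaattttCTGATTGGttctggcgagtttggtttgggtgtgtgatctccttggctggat
H2-Eb1: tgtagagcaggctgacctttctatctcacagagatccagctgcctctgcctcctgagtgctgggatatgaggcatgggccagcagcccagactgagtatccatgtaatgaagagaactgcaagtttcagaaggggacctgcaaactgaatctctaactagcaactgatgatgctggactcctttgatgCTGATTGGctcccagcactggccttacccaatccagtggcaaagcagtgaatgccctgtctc
On either strand these letters occurred in 1258 of 32851 promoter windows of the same length (3.83%), and in no other member window.

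C1qc encodes the C chain of C1q and was higher with its partner chains in the same tissues, with the same limits. The stretch upstream of C1qc, at chr4:136893066-136893164 on the minus strand, holds ACTTCCTC (in capitals), the reverse complement of GAGGAAGT, a motif of the kind bound by PU.1.
C1qc: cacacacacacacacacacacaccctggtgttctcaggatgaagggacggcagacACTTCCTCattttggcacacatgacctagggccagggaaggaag
The motif was in 802 of 32851 windows (2.44%) on either strand and in 1 of the 30 member windows. A match in letters is a description of the window and no evidence of binding. The motifs were searched separately and did not overlap in these windows.

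Heart libraries held 2803991 to 12986214 counts, Kidney libraries 1241590 to 16912788 and VFAT libraries 5666563 to 20037187, of which the 41 genes took 0.0338 to 0.355%, 0.0430 to 0.406% and 0.0908 to 1.55%. Levels are in CPM, the count divided by a library total in units of 1e6 counts and scaled by the trimmed mean of M-values (TMM). Heart muscle, proximal tubule and adipocyte markers were high in the tissues labelled for them, but 4 of the 5 VFAT Sham libraries also held 7131 to 16119 CPM of epididymis markers and Heart Sham 2 and 3 held 1027 and 3165 CPM of proximal tubule markers. Summed T cell markers stayed between 0 and 13.5 CPM and summed B cell markers between 0 and 11.1 CPM in all libraries. The B cell gene Ms4a1 had no count in Heart, Kidney or VFAT. Several libraries stood apart in the member genes. Neutrophil markers summed to 4199 CPM in Kidney PNx 3, 1690 and 741 CPM in Heart PNx 1 and 2, 1108 CPM in Heart scrambled cells 3 and 386 CPM in VFAT scrambled cells 4. In VFAT scrambled cells 4, lymph node and spleen stroma markers summed to 749 CPM, against 0.719 to 20.8 CPM in the other scrambled cells libraries. The main results that rest on these libraries are given with and without them.

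**Figure D1:**
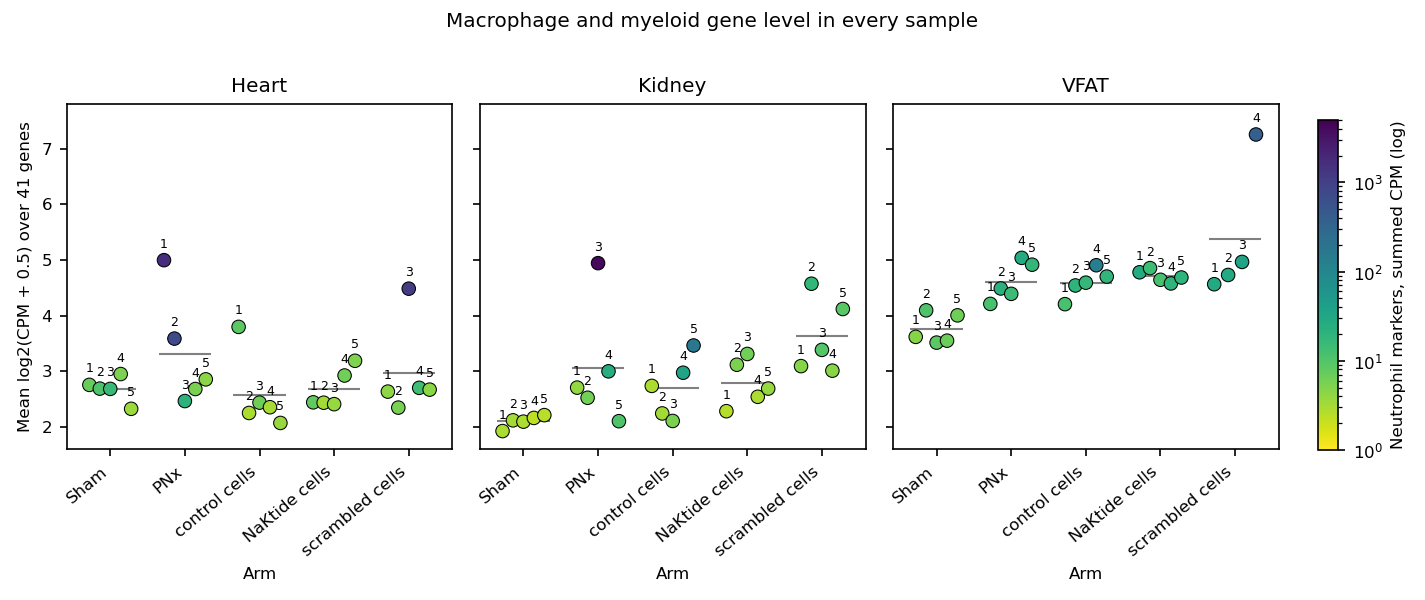
The mean log2(CPM + 0.5) of the 41 genes is plotted for each sample by tissue and arm, with a grey line at the mean of the arm and colour for the summed CPM of neutrophil markers on a log scale. VFAT scrambled cells 4, at 7.25, Heart PNx 1, at 5.0, and Kidney PNx 3, at 4.94, stand above the rest of their arms, and Kidney PNx 3 has the most neutrophil markers, at 4199 CPM.

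In sham-operated mice lysozyme, the invariant chain and C1q led the member genes in heart and fat, and MHC class II transcripts led in kidney. Levels between genes are compared per length, in the FPKM values the authors deposited. Lyz2, the lysozyme of macrophages, and Cd74, the invariant chain that escorts MHC class II, held the 2 top places in Heart and VFAT. In Heart, Lyz2 stood at 129 ± 23.1 FPKM and Cd74 at 96.8 ± 38.5 FPKM (SD, n = 5), with overlapping ranges, and C1qa, the A chain of C1q, followed at 58.2 ± 23.7 FPKM. In VFAT, Cd74 stood at 125 ± 45.0 FPKM and Lyz2 at 99.8 ± 45.4 FPKM (SD, n = 5), again overlapping. Kidney differed in its order, with Cd74 at 123 ± 19.2 FPKM, the MHC class II beta chains H2-Eb1 at 30.5 ± 4.68 FPKM and H2-Ab1 at 20.2 ± 3.51 FPKM, and then Lyz2 at 19.5 ± 3.24 FPKM (SD, n = 5). Cd74 did not overlap with the other 3, and H2-Ab1 and Lyz2 overlapped. At least 1 FPKM was reached by 31 members in Heart, 22 in Kidney and 33 in VFAT, and at least 10 FPKM by 9, 6 and 14. The complement receptor Vsig4, a marker of resident macrophages, was lowest of the 41 in Kidney, at 0 to 0.0735 FPKM.

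**Figure D2:**
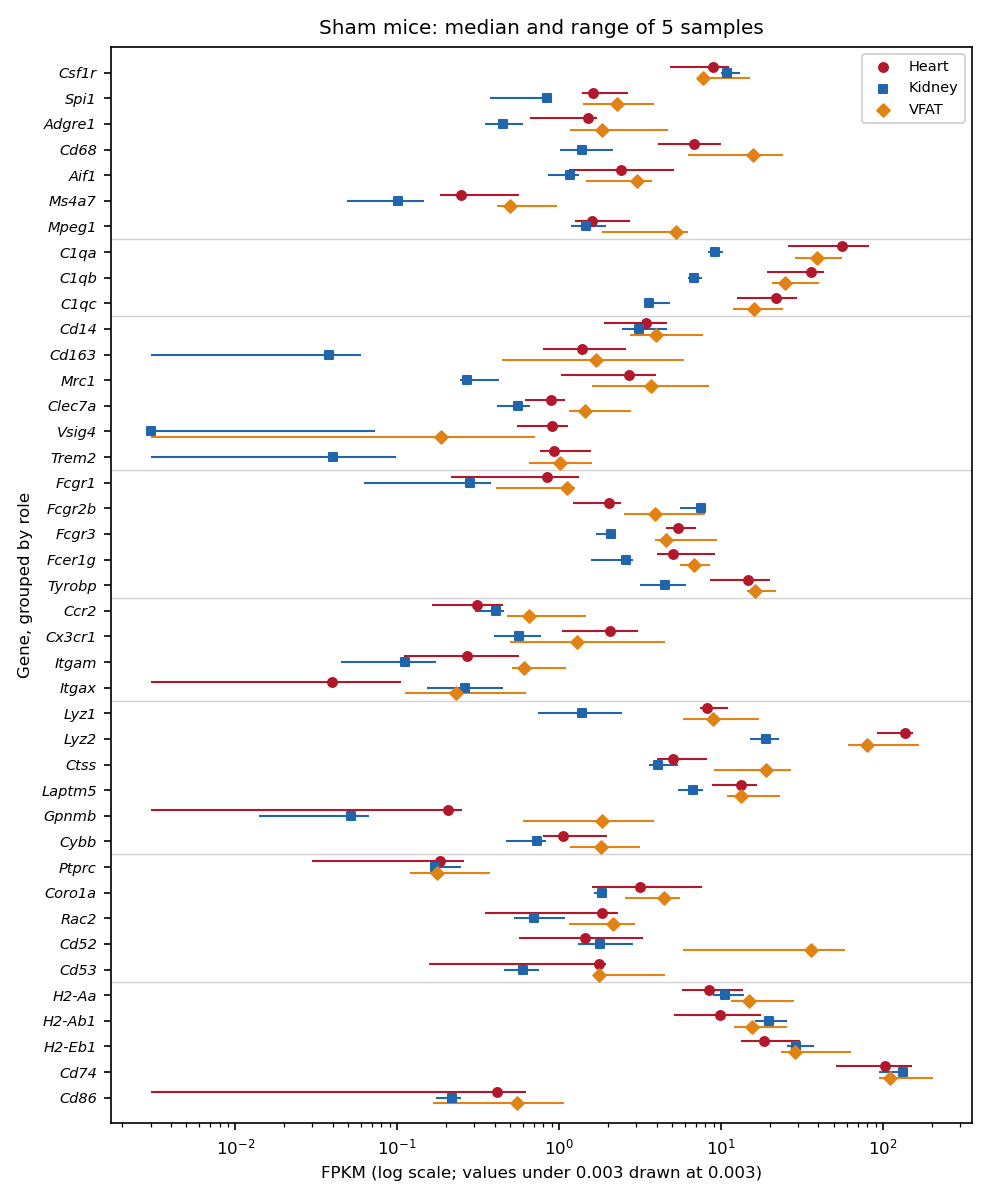
Each of the 41 genes is shown by the median FPKM of the 5 Sham samples, with the range as a bar, in Heart, Kidney and VFAT on a log axis. Cd74 stands at the top in Kidney and VFAT, and the median over genes of the mean level is 1.95 FPKM in Heart, 1.44 FPKM in Kidney and 4.28 FPKM in VFAT.

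Kidney of sham-operated mice had less of many macrophage transcripts than fat, led by scavenger and lipid receptors. A gene was called at a Benjamini-Hochberg adjusted p under 0.05 in edgeR's quasi-likelihood test. Between VFAT Sham and Kidney Sham 24 of 41 members were higher in VFAT and none in Kidney, where 27.7% and 21.5% of all genes tested were called in these directions. The haemoglobin scavenger receptor Cd163 led in log2 difference, at 6.09 ± 0.92 (SE, adjusted p = 3.58e-06). Gpnmb, a glycoprotein of lipid-laden macrophages, differed by 5.59 ± 0.89, the lipid receptor Trem2 by 4.69 ± 0.82 and the surface peptide Cd52 by 4.24 ± 0.92. In whole tissue, fewer cells of a type and less RNA per cell cannot be told apart. Kidney Sham against Heart Sham gave 14 lower members and 3 higher ones, with 29.9% and 29.3% of all genes called lower and higher, so the share lower was near the background. Cd163 (log2 -5.54), Vsig4 (-5.17), Trem2 (-4.60) and the mannose receptor Mrc1 (-3.03) were the lower members of largest log2 difference, and the integrin Itgax (2.31), the inhibitory Fc receptor Fcgr2b (1.99) and the MHC class II beta chain H2-Ab1 (0.85) were the higher ones. VFAT Sham exceeded Heart Sham in 10 members and fell below it in none, against 31.1% and 25.1% of all genes, so the share higher was below the background. Cd52 (4.54 ± 0.99), Gpnmb (3.66 ± 0.81), Itgax (2.50 ± 0.88) and the protease Ctss (1.53 ± 0.51) had the largest log2 differences, and the count was 6 without Heart Sham 2 and also 6 without VFAT Sham 5. Cd52 in VFAT Sham ranged from 8.06 to 83.6 CPM with the epididymis markers, and Cd52 is also known as an abundant epididymal transcript.

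After partial nephrectomy the remaining kidney carried more macrophage, C1q and MHC class II transcripts, by an amount that rested largely on 1 of 5 libraries. Of 39 members tested, 22 were higher in PNx than in Sham (56.4%), where 9.25% of all genes tested were called higher, and none was lower, where 7.56% of all genes were. Trem2 lies on chromosome 17 at 48346401-48354147, C1qa on chromosome 4 at 136895917-136898803 and Lyz2 on chromosome 10 at 117277331-117282321 (GRCm38, GENCODE M21). The members tested had a median log2 difference of 1.70, against 0.05 over all genes. The groups did not overlap for 12 members, all higher in PNx, against 5.23% of all genes: Trem2, Aif1, Cd74, Coro1a, H2-Aa, C1qb, Cx3cr1, Fcer1g, H2-Eb1, Lyz1, Lyz2 and H2-Ab1. Cd163 and Vsig4 were too low in Kidney to be tested. By role, the rise covered 4 of 7 identity genes, 3 of 3 C1q subunits, 4 of 5 Fc receptors and adaptors, 4 of 5 MHC class II genes, 3 of 5 leukocyte genes, 2 of 6 lysosomal genes, 2 of 4 tested pattern receptors and 0 of 4 chemokine receptors and integrins.

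Among the identity genes, Spi1 read 1.04, 2.46, 1.45, 2.36 and 2.46 CPM in Sham 1 to 5 and 4.29, 3.15, 63.2, 5.18 and 1.68 CPM in PNx 1 to 5. PNx 3 lay far above the other libraries and PNx 5 lay within the Sham range. The log2 difference was 3.0 ± 0.73 (SE, n = 5, adjusted p = 0.0188). Ms4a7, Cd68 and Aif1, a membrane protein, a lysosomal glycoprotein and a calcium-binding protein of macrophages, rose by log2 2.33, 2.1 and 1.87. Csf1r, the growth factor receptor, read 50.02 to 66.3 CPM in Sham and 53.3, 56.6, 144, 65.7 and 31.4 CPM in PNx, and with a log2 difference of 0.33 ± 0.26 it was not called (adjusted p = 0.323). The adhesion receptor Adgre1, known as F4/80, was not called either, at 0.60 ± 0.46 (adjusted p = 0.320), nor was the pore-forming Mpeg1.

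The C1q chains moved as a block. C1qa read 8.98 to 11 CPM in Sham and 14.6, 10.6, 217, 37.1 and 17.2 CPM in PNx. PNx 2 lay within the Sham range and the other 4 above it. Its log2 difference was 2.57 ± 0.73 (adjusted p = 0.0301), beside 2.42 ± 0.67 for C1qb (adjusted p = 0.0274) and 2.05 for C1qc.

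Trem2, a lipid receptor that signals through the adaptor Tyrobp, had the lowest p of all members. Trem2 read 0.189, 0, 0.208, 0.505 and 0.234 CPM in Sham and 1.95, 0.746, 22.9, 4.01 and 1.96 CPM in PNx. Each PNx library lay above each Sham library, at levels that rest on few counts outside PNx 3. The log2 difference was 4.81 ± 1.09 (adjusted p = 0.0142). Tyrobp itself rose by 3.02 ± 0.74 (adjusted p = 0.0194) and Fcer1g, the shared gamma chain of Fc receptors, by 2.61 ± 0.65 (adjusted p = 0.0194). Fcgr1 and Fcgr3, activating Fc receptors, rose by 2.13 and 2.05, while the inhibitory Fcgr2b differed by 0.13. Without PNx 3 the differences were 0.97 ± 0.55, 0.36 ± 0.39 and 0.13 ± 0.20. Fcgr2b has 5790 exon bases, against 2589 for Fcgr1 and 1736 for Fcgr3. The libraries differed in short against long transcripts, as given below, and the part of length here was not tested. The endotoxin co-receptor Cd14 rose by 2.32.

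Lysozyme transcripts rose in parallel. Lyz2 read 20.5, 25.8, 24.2, 31.0 and 30.8 CPM in Sham and 102, 58.4, 833, 109 and 33.8 CPM in PNx. PNx 5 came close to the highest Sham library without overlapping it. The log2 difference was 3.10 ± 0.72 (adjusted p = 0.0151) for Lyz2 and 3.42 ± 0.79 (adjusted p = 0.0146) for Lyz1, whose reads may be shared. The leukocyte genes Coro1a, an actin regulator, and Rac2, a GTPase of the oxidase, rose by 3.24 ± 0.80 (adjusted p = 0.0194) and 3.29 ± 0.84 (adjusted p = 0.0205), and Cd52 rose by 2.85 ± 0.78 (adjusted p = 0.0269). Ptprc, which encodes the leukocyte antigen CD45, was not called, with a log2 difference of -0.15 ± 0.43 (adjusted p = 0.810). It read 3.02 to 4.71 CPM in Sham and 5.07, 4.69, 3.94, 2.20 and 0.561 CPM in PNx. Ptprc has 18313 exon bases, against 2783 for Coro1a and 3103 for Rac2. Its sign changed with a transcript length index as a covariate, as given further on.

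MHC class II genes changed by less but with a narrower spread. H2-Ab1 read 27.5, 33.3, 30.4, 43.4 and 35.3 CPM in Sham and 63.9, 61.2, 133, 82.6 and 49.6 CPM in PNx. All PNx libraries lay above all Sham libraries. Its log2 difference was 1.2 ± 0.32 (adjusted p = 0.0234), beside 1.69 ± 0.48 for H2-Eb1 (adjusted p = 0.0285), 1.58 ± 0.45 for H2-Aa (adjusted p = 0.0290) and 1.46 for Cd74. Cd86, a costimulatory ligand, was at 1.28 and not called. Of 7 genes of the class II loading machinery, 4 were tested and 2 rose, H2-DMa by 1.38 and H2-DMb1 by 1.32, both subunits of the peptide exchange factor.

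PNx 3 was the highest PNx library for 36 of the 41 members, and it also held 4199 CPM of neutrophil markers, against 4.03 to 25.6 CPM in PNx 1, 2, 4 and 5 and 2.36 to 3.14 CPM in Sham. Of 10 neutrophil markers 3 could be tested, and all 3 rose. Spi1, Tyrobp, Coro1a, Rac2 and the lysozymes are also made by neutrophils, and the part of neutrophils in these rises was not tested. Without PNx 3 no member was called by edgeR, 10 had an unadjusted p under 0.05, 33 of 39 were positive and the median was 0.78. Trem2 was then at 3.22 ± 0.99 (adjusted p = 0.0890), H2-Ab1 at 0.91 ± 0.30 (adjusted p = 0.107), Lyz2 at 1.51 ± 0.51 (adjusted p = 0.113), C1qa at 0.96 ± 0.56 and Rac2 at 0.53 ± 0.44. RNA also differed: the index of short against long transcripts, the gap in mean log2 level between genes with short and long exons, stood at 0.14, -0.04 and 0.16 for PNx 3, 4 and 5 while Sham libraries ranged from -1.22 to -1.01, and with it as a covariate no member was called and the median was 1.14. Leaving out any single Sham library left 5 to 12 calls, and leaving out PNx 4 left 14.

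**Figure D3:**
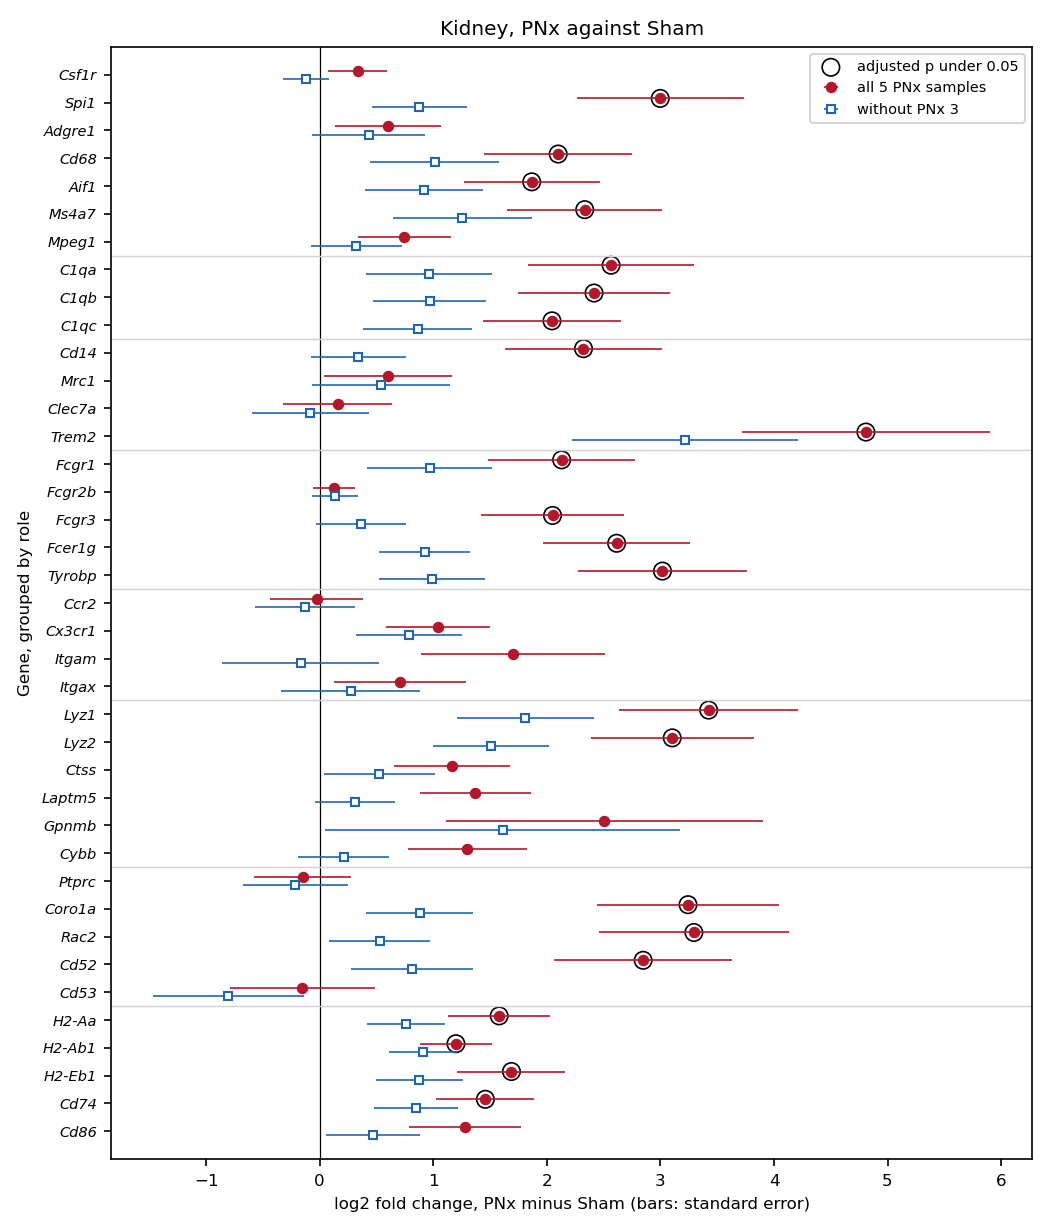
Log2 differences between PNx and Sham in Kidney are drawn with their SE for the members tested, from all libraries and from the fit without PNx 3. The called members lie between 1.2 and 4.81 with all libraries, and in the second fit most points move toward 0, with Trem2 at 3.22 and Csf1r at -0.12.

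Genes that work with the members followed in part. Of 16 partner subunits and signalling genes, 7 rose in Kidney PNx, led by the oxidase subunits Ncf4 (log2 4.05, adjusted p = 0.0194) and Ncf1 (3.54, adjusted p = 0.0194) and the kinase Fgr (1.89, adjusted p = 0.0256). Of 9 tested growth factors and chemokines for macrophages 3 rose: Cxcl16 (0.89), the CSF1R ligand Il34 (0.86) and Ccl8 (3.87). Of 7 tested genes of resident macrophages 3 rose and 3 fell, with the platelet factor Pf4 at 2.57, the reductase Cbr2 at 1.48 and the phagocytosis receptor Mertk at -0.98. Of 12 lipid-associated genes the lectin Lgals3 rose by 1.83, while the lipase Lpl and the fatty acid carrier Cd36, which other cell types make as well, had differences of -0.70 and -0.97.

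In visceral fat the C1q and MHC class II genes were higher after partial nephrectomy and most other members were not called. All 41 members were tested, 13 were higher in PNx than in Sham (31.7%), with 4.83% of all genes called higher, and none was lower, with 8.18% of all genes called lower. The median over members was 1.02, against 0.01 over all genes. The groups did not overlap for 13 members, all higher in PNx, against 3.38% of all genes: Cd74, Laptm5, Tyrobp, Coro1a, H2-Aa, C1qa, C1qb, Cd14, Fcer1g, H2-Eb1, Lyz1, Lyz2 and H2-Ab1. By role, 5 of 5 MHC class II genes and 3 of 3 C1q subunits rose, beside 1 gene in each of the identity, pattern receptor, Fc receptor, lysosomal and leukocyte roles and 0 of 4 chemokine receptors and integrins.

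H2-Aa read 26.0, 61.9, 33.3, 33.3 and 27.9 CPM in Sham and 118, 187, 71.9, 84.7 and 98.7 CPM in PNx. Sham 2 was the highest Sham library and still lay below the lowest PNx library. The log2 difference was 1.62 ± 0.38 (SE, n = 5, adjusted p = 0.00803). H2-Ab1 rose by 1.65 ± 0.42 (adjusted p = 0.0120), H2-Eb1 by 1.6 ± 0.42 (adjusted p = 0.0140), Cd74 by 1.52 ± 0.40 (adjusted p = 0.0149) and Cd86 by 1.2 ± 0.36 (adjusted p = 0.0333). C1qa read 43.9, 68.0, 48.8, 35.4 and 54.8 CPM in Sham and 74.0, 141, 106, 163 and 115 CPM in PNx. The groups lay apart, with PNx 1 nearest to Sham. C1qa rose by 1.26 ± 0.28 (adjusted p = 0.00564), C1qc by 1.18 ± 0.27 (adjusted p = 0.00708) and C1qb by 1.19 ± 0.33 (adjusted p = 0.0205).

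Single members of the other roles joined them. Vsig4, the complement receptor, read 0, 1.23, 0.330, 0 and 0.586 CPM in Sham and 0.493, 0.934, 1.97, 15.7 and 2.22 CPM in PNx. The groups overlapped and PNx 4 stood far above the rest. Its log2 difference was 3.29 ± 0.89 (adjusted p = 0.0184). Coro1a rose by 1.21 ± 0.39 (adjusted p = 0.0445), Fcgr3 by 1.08 ± 0.35 (adjusted p = 0.0462) and Csf1r by 1.09 ± 0.36 (adjusted p = 0.0490). Lyz2 read 96.8, 257, 125, 103 and 193 CPM in Sham and 279, 351, 366, 649 and 452 CPM in PNx, and it rose by 1.44 ± 0.47 (adjusted p = 0.0491). Adgre1, at 0.82 ± 0.62 (adjusted p = 0.427), and Ptprc, at 0.97 ± 0.64 (adjusted p = 0.351), were not called.

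The Sham libraries of fat differed from all others in tissue content. Epididymis markers summed to 16119, 156, 7509, 15353 and 7131 CPM in Sham 1 to 5 and to 0.164 to 56.6 CPM in PNx, and 6 of 6 were called lower in PNx. Adipocyte markers were at 1801 and 951 CPM in Sham 1 and 4, against 7862 to 10323 CPM in PNx. Of 5 neutrophil, 5 NK cell and 5 endothelium markers tested, 2 each were higher in PNx, as was 1 marker each of dendritic cells, mast cells, mesothelium and fibroblasts. All 5 endothelium markers were positive, with a median of 0.96, beside 1.02 for the members. Adipocyte markers had a median of 0.85, with 5 of 5 positive, and fibroblast markers 0.03, with 3 of 6 positive. The part of these in the members' rise was not tested. Sham 2, with the fewest epididymal reads, was the highest Sham library for 26 of 41 members. Without Sham 1 and 4 no member was called by edgeR, 12 had an unadjusted p under 0.05 and the median was 0.86. H2-Aa was then at 1.46 ± 0.47 (adjusted p = 0.110) and C1qa at 1.07 ± 0.33 (adjusted p = 0.0901). Sham 3 and 5 stayed in that fit with 7509 and 7131 CPM of epididymis markers, so it had fewer samples without being free of epididymal reads. With an epididymis index as a covariate no member was called, none had an unadjusted p under 0.05 and the median was -0.40, with standard errors about as large as the differences (H2-Aa 0.62 ± 0.64). The index ran from 3.94 to 10.8 in Sham and from -2.06 to 2.82 in PNx. As the arms did not overlap in it, that fit cannot separate epididymal content from partial nephrectomy. Leaving out 1 library left 4 to 8 calls for Sham 1, 3 and 4 and for PNx 2 to 5 in turn.

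**Figure D4:**
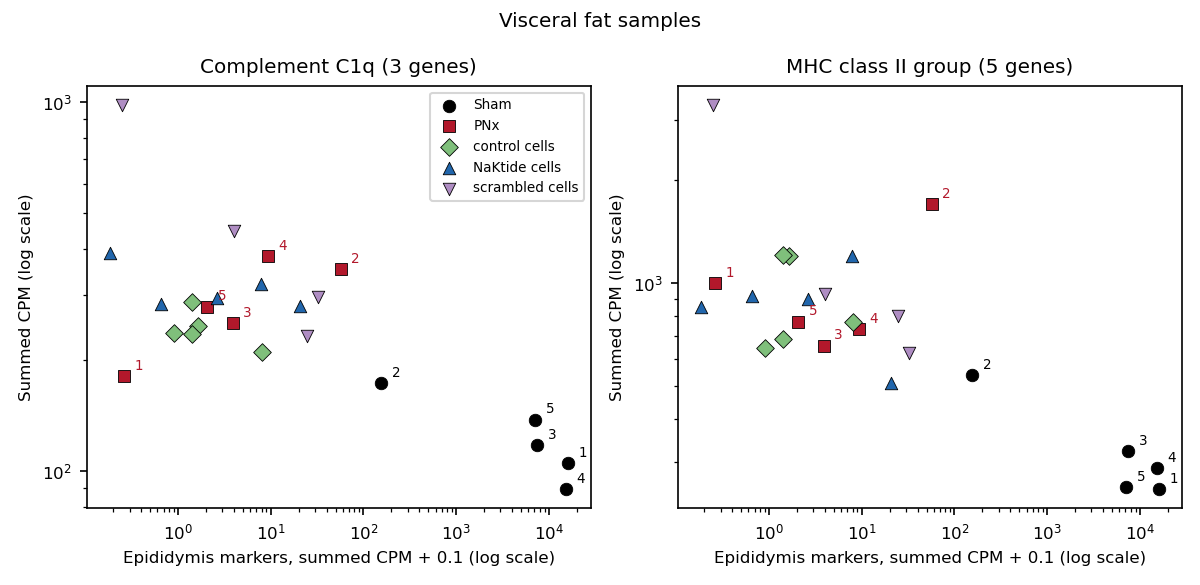
For VFAT samples the summed CPM of the C1q genes and of the MHC class II genes is plotted against the summed CPM of epididymis markers, on log axes with 0.1 added to the epididymis sum, coloured by arm. The Sham points lie to the right, at 156 CPM of epididymis markers and above, and at the bottom, with C1q sums of 89.5 to 174 CPM against 182 to 382 CPM in PNx.

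Cd52 ran against most other members in fat. Cd52 read 83.6, 8.06, 50.9, 77.9 and 34.1 CPM in Sham and 5.76, 15.2, 4.995, 10.9 and 8.22 CPM in PNx. Sham 2 alone lay within the PNx range, in the order of the epididymis markers. The log2 difference of -2.49 ± 1.03 was not called by edgeR in the main fit (adjusted p = 0.117). DESeq2 called Cd52 lower (-2.53, adjusted p = 0.0399), as did edgeR with only the 2 arms (-2.54, adjusted p = 0.0475). VFAT NaKtide cells 5 held 431 CPM of Cd52, against 3.81 to 15.3 CPM in the other NaKtide cells libraries, with 0.557 CPM of epididymis markers. Cd52 shares sequence with Crybg2 on the opposite strand, and strand is not stated for the counting.

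Of the partner lists in fat, 2 of 16 partner subunits rose and 2 fell, among them the cytokine receptor Csf2rb at 1.61 and the kinase Syk at -1.81. Of 11 resident macrophage genes Pf4 rose by 1.53 and the scavenger receptor Stab1 by 1.27. Of 12 lipid-associated genes the proton pump subunit Atp6v0d2 fell by 3.73 and the tetraspanin Cd9 by 1.98 on the log2 scale, both of which epithelia also make.

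In the heart no member was called after partial nephrectomy. Of 40 members tested edgeR called 0, with 0.0133% of all genes called higher and 0.113% lower. An unadjusted p under 0.05 was reached by 19 members, and by 2387 of all 15091 genes tested. DESeq2 called Lyz1 alone (log2 2.04, adjusted p = 0.0181). The median over members was 1.12, against -0.003 over all genes, and 37 of 40 were positive, against 49.6% of all genes. Lyz2 read 144, 143, 99.1, 160 and 133 CPM in Sham and 910, 404, 119, 149 and 239 CPM in PNx. PNx 1 and 2 were high and PNx 3 and 4 lay within the Sham range. The log2 difference was 1.42 ± 0.51 (SE, n = 5, adjusted p = 0.193). Ptprc differed by 1.38 ± 0.64 (adjusted p = 0.294), Adgre1 by 1.10 ± 0.51 (adjusted p = 0.300), C1qa by 0.63 ± 0.52 (adjusted p = 0.566), Csf1r by 0.44 ± 0.46 (adjusted p = 0.676) and H2-Aa by 0.19 ± 0.30 (adjusted p = 0.799). PNx 1 was the highest PNx library for 38 of 41 members. PNx 1 and 2 are the libraries with 1690 and 741 CPM of neutrophil markers, against 4.37 to 21.3 CPM in PNx 3 to 5, and without them and scrambled cells 3 the median was -0.14 and 15 of 40 were positive.

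The PNx effect on the members differed between tissues in few genes. Of 41 members, 1 had a lower effect in VFAT than in Heart, where 3.11% of all genes did and 1.73% had a higher one. This was Cd52, with a difference of log2 effects of -4.81 ± 1.27 (adjusted p = 0.0288). Between VFAT and Kidney, 2 members had a lower effect in VFAT, against 4.85% of all genes lower and 1.65% higher. They were Cd52 at -5.27 ± 1.22 (adjusted p = 0.00845) and Trem2 at -3.81 ± 1.02 (adjusted p = 0.0227). Against Heart and Kidney these calls made up 2.44% and 4.88% of the members, so neither share stood out from the background. For Cd52 the fat libraries with epididymal reads were the high ones in Sham. Without Kidney PNx 3, 4 and 5 and Heart Sham 2 and 3, Cd52 was still called between VFAT and Heart and no member was called between VFAT and Kidney, and without Kidney PNx 3 alone none was called there either. The count between VFAT and Heart was 0 without VFAT Sham 1 or 4, 2 without Heart PNx 1 or Heart Sham 5 and 4 without VFAT Sham 2, and that between VFAT and Kidney was 4 without VFAT Sham 2. Between Kidney and Heart edgeR called none, with 0.0518% of all genes higher and 0.046% lower, 10 members had an unadjusted p under 0.05 and DESeq2 called 2. That count became 1 without Heart Sham 1 or 4, 2 without Heart Sham 5 and 3 without Kidney PNx 1 or 2. The comparisons share libraries of the same tissue, so their calls are not independent.

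In fat, 5 members were lower with NaKtide cells than with scrambled cells, and this rested on 1 scrambled cells library. Of 41 members tested 5 were called lower, with 2.12% of all genes called lower, and none higher, with 0.239% of all genes called higher. The median was -1.04. Cybb, the catalytic subunit of the phagocyte oxidase, read 20.9, 21.7, 20.99 and 624 CPM in scrambled cells 1 to 4 and 13.6, 31.4, 17.4, 25.8 and 21.8 CPM in NaKtide cells 1 to 5. Scrambled cells 4 stood alone and the other 3 lay within the NaKtide cells range. The log2 difference was -2.96 ± 0.75 (SE, n = 5 and 4, adjusted p = 0.0388). Lyz2 read 404, 1268, 963 and 5772 CPM with scrambled cells and 810, 458, 408, 523 and 417 CPM with NaKtide cells. Scrambled cells 2 and 3 also lay above the NaKtide cells range. Lyz2 was lower by log2 -2.01 ± 0.50 (adjusted p = 0.0347), Lyz1 by -2.48 ± 0.61 (adjusted p = 0.0332), Cd14 by -2.46 ± 0.59 (adjusted p = 0.0285) and Mpeg1 by -2.67 ± 0.66 (adjusted p = 0.0344). Adgre1 at -2.35 ± 0.65 (adjusted p = 0.0563), Ptprc at -2.29 ± 0.67 (adjusted p = 0.0714), Csf1r at -0.76 ± 0.38 (adjusted p = 0.274), C1qa at -0.57 ± 0.29 (adjusted p = 0.289) and H2-Aa at -0.66 ± 0.39 (adjusted p = 0.392) were not called.

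Scrambled cells 4 was the highest of its arm for 38 of 41 members. It also held the 749 CPM of lymph node and spleen stroma markers, 386 CPM of neutrophil markers and 42.1 CPM of NK cell markers, and scrambled cells 2 and 3 held 3731 and 17659 CPM of pancreas markers. Their part in the difference was not tested. Without scrambled cells 4 edgeR called none, 2 members had an unadjusted p under 0.05 and the median was -0.03, with Lyz2 at -0.74 ± 0.35 (adjusted p = 0.332) and Cybb at 0.06 ± 0.33. No member was called either without any 1 of NaKtide cells 2 to 5, and 17, 9 and 13 were called without scrambled cells 1, 2 and 3. Of 11 resident macrophage genes the scavenger receptor Msr1 (-3.15) and the phosphatidylserine receptor Timd4 (-3.53) were lower.

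**Figure D5:**
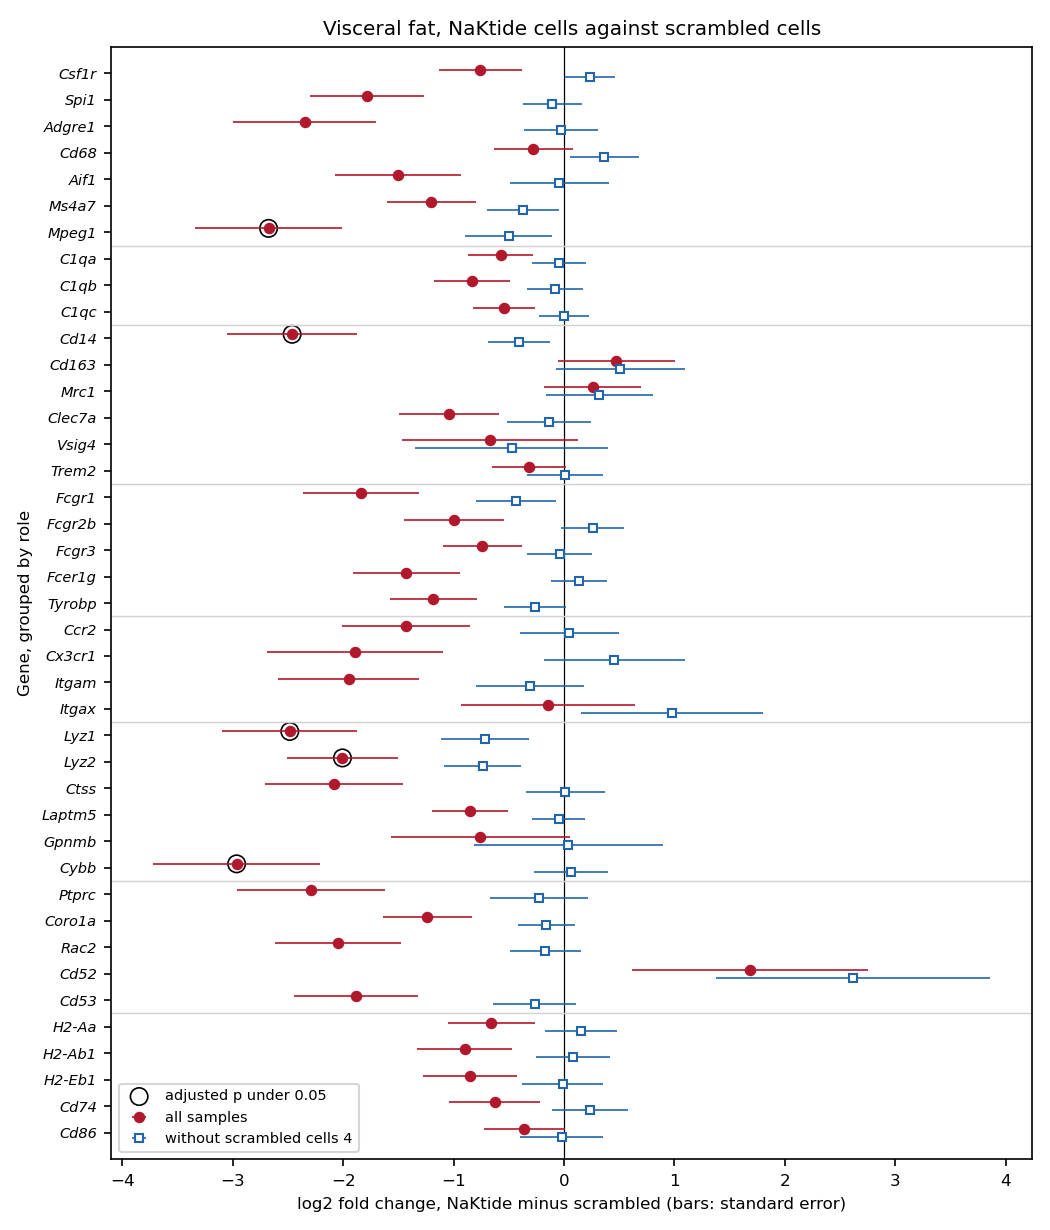
Log2 differences between NaKtide cells and scrambled cells in VFAT are drawn with their SE for the members, from all libraries and from the fit without scrambled cells 4. The called members, at -2.96 to -2.01 with all libraries, lie between -0.74 and 0.06 without that library.

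The same library carried the contrast of scrambled with control cells, which shares the scrambled cells samples. In it 8 of 41 members were higher with scrambled cells, with 1.94% of all genes called higher, and none was lower, with 0.467% of all genes called lower and 2.41% called in either direction. The named members were Lyz1 (2.97 ± 0.62, adjusted p = 0.0136), Lyz2 (2.34 ± 0.50, adjusted p = 0.0159), Adgre1 (2.70 ± 0.66, adjusted p = 0.0336), Ms4a7 (1.63 ± 0.41, adjusted p = 0.0388), the integrin Itgam (2.59 ± 0.65, adjusted p = 0.0388) and Cybb (2.98 ± 0.76, adjusted p = 0.0413). Itgam shares 66.3% of its 50-base stretches with other genes, among them the predicted gene Gm49368 on the same strand, so its count is uncertain. Without scrambled cells 4 edgeR called none, 3 had an unadjusted p under 0.05 and the median fell from 1.18 to 0.15, with Lyz2 at 1.07 ± 0.35 (adjusted p = 0.214). Leaving out control cells 1 to 5 in turn gave 2, 3, 1, 4 and 1 calls, and leaving out scrambled cells 1 and 3 gave 21 and 14. Of 16 partner genes 5 were higher with all libraries, among them the oxidase subunit Ncf1 at 2.80 and the integrin chain Itgb2 at 2.76, as were Msr1 (3.62) and Timd4 (4.21).

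Against PNx alone, neither control cells nor NaKtide cells changed a member in fat by edgeR's test, where 0.0% of all genes were called in either direction. Control cells gave a median of -0.10 with 0 members under an unadjusted p of 0.05, and NaKtide cells a median of 0.04 with 1 member. Of all 17552 genes tested 442 and 652 were under that p. DESeq2 called 0 members in both. H2-Aa, with 82.9 to 149 CPM in control cells and 71.3 to 137 CPM in NaKtide cells, overlapped with PNx.

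In the kidney no member was called between any cell arm and its reference by edgeR. Control cells against PNx gave 11 members under an unadjusted p of 0.05 and a median of -0.65, and NaKtide cells against PNx 15 members and a median of -0.87, with 0.0% of all genes called and 0 members called by DESeq2 in both. In the 2 contrasts 1049 and 3116 of all 16307 genes tested were under that unadjusted p. These 2 contrasts share the PNx libraries, and both medians turned positive without PNx 3, to 0.12 for control cells and 0.25 for NaKtide cells, with 1 member each under an unadjusted p of 0.05. Without PNx 3, 4, 5 and control cells 4, 5 they were -0.24 and 0.25, and with the RNA length index -0.77 and -0.26. NaKtide cells against scrambled cells gave 15 members under an unadjusted p of 0.05, beside 819 of all 16307 genes, and a median of -0.93. EdgeR called 0.0% of all genes, and DESeq2 called the beta-glucan receptor Clec7a (log2 -1.91, adjusted p = 0.0499). H2-Ab1 and H2-Eb1 did not overlap in that comparison, where 0.442% of all genes did not overlap with lower values. H2-Ab1 read 44.9, 48.2, 52.7, 48.2 and 39.1 CPM with NaKtide cells and 88.8, 116, 56.6, 74.8 and 140 CPM with scrambled cells. Every NaKtide cells library lay below every scrambled cells library. The log2 difference of -1.03 ± 0.31 was not called (adjusted p = 0.876). Lyz2 at -1.96 ± 0.68, Adgre1 at -0.73 ± 0.42, H2-Aa at -0.70 ± 0.44, C1qa at -0.87 ± 0.69, Ptprc at -0.48 ± 0.41 and Csf1r at 0.14 ± 0.26 had adjusted p-values of 0.876 to 0.912.

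Scrambled cells against control cells showed higher values for most members in kidney without a call. Of 39 tested, 20 had an unadjusted p under 0.05, beside 1753 of all 16307 genes. The median was 1.09 and 35 were positive, against 47.7% of all genes. EdgeR called 0 members, with 0.0% of all genes called higher and 0.0123% lower. DESeq2 called 5: Ctss, the leukocyte tetraspanin Cd53, Mpeg1, the chemokine receptor Ccr2 and Clec7a. The share of all genes called by DESeq2 is not reported here, and edgeR's share is no background for these 5. Clec7a read 1.77, 1.52, 1.31, 1.02 and 1.23 CPM with control cells and 2.78, 17.9, 10.7, 2.54 and 11.6 CPM with scrambled cells. The groups did not overlap for Clec7a and Mpeg1, against 0.932% of all genes higher without overlap. Control cells 5 held only 1241590 counts in all, so its Clec7a level rests on very few reads. The log2 difference of Clec7a was 2.65 ± 0.49 (adjusted p = 0.0762). Control cells 4 and 5 also had a high RNA length index, at 0.24 and 0.26, beside PNx 3 to 5. Without these 5 libraries edgeR called 18 members higher with scrambled cells, among them Coro1a (1.62, adjusted p = 0.0108), C1qa (1.52, adjusted p = 0.0140) and H2-Aa (1.16, adjusted p = 0.0187). The share of all genes called in that smaller fit is not reported here, so the 18 cannot be set against a background. Scrambled cells 2 and 5 were the highest of their arm for 27 and 13 of the 41 members. Scrambled cells 2 held 190 CPM of Gpnmb and 848 CPM of Lyz2, with 262 CPM of adipocyte and 29.6 CPM of epididymis markers, and their part in the difference was not tested.

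In the heart edgeR called no member in any of the 4 comparisons with cells, where 0.0% of all genes were called, and DESeq2 called 0. The members under an unadjusted p of 0.05 numbered 18 for control cells against PNx, 14 for NaKtide cells against PNx, 5 for NaKtide against scrambled cells and 6 for scrambled against control cells. Of all 15091 genes tested 1261, 1249, 903 and 1098 were under that p. The medians over members were -0.98, -0.99, -0.50 and 0.63. Without PNx 1 and 2 and scrambled cells 3 these medians were 0.02, 0.10, 0.17 and -0.12. NaKtide against scrambled cells gave Ptprc at -1.33 ± 0.61, Lyz2 at -0.49 ± 0.50, Adgre1 at -0.37 ± 0.49, Csf1r at -0.31 ± 0.46, C1qa at -0.29 ± 0.52 and H2-Aa at -0.05 ± 0.30, with adjusted p-values of 0.721 to 0.968. Gpnmb read 104 CPM in control cells 1, against 0.539 to 2.39 CPM in the other control cells libraries.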

How the data were processed

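RNA was extracted from flash frozen tissue with the RNeasy Plus Universal kit, per the labels' protocols, and sequenced as 2 reads of 50 bases. The submitters' processing notes name build GRCm38, HISAT2 2.1.0, Trimmomatic 0.38 and DESeq2 1.20.0 and 1.20.1. How reads were counted, with which annotation and strand setting, is not given in the sources used here. The authors deposited raw counts per gene for 76 libraries, which are not normalized, and FPKM values, which scale counts by depth and gene length. A normalized table was not used. Gene names and coordinates came from GENCODE M21, with 54165 of 54232 IDs matched. Kidney Sham and VFAT scrambled cells each have a second library under number 3. The labels give only the shared number, and the second library was added to the first, which left 74 samples. In VFAT scrambled cells the log levels of both libraries had the highest correlation of all pairs of the arm (r = 0.982, across genes), but in Kidney Sham the lowest (r = 0.966), so there they may be different samples. Leaving the second library out gave 22 called members in Kidney PNx against Sham and keeping it separate gave 24.

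From the counts, edgeR 4.0.16 in R 4.3.3 was run with TMM scaling, its own filter on low counts (filterByExpr) and the quasi-likelihood F test, with 1 fit of the 5 arms per tissue and 1 joint fit of Sham and PNx for contrasts between tissues. All p-values are two-sided and adjusted over all genes in a fit by Benjamini-Hochberg, and a call needs an adjusted p under 0.05. CPM is the count over the TMM-scaled library total, and 0.5 was added before log2 for levels by sample. The fits were tested on simulated data. The 41 members, the lists and the tests were chosen with earlier results of these data known. Named members were up to 12 called ones by lowest p, plus Csf1r, Adgre1, C1qa, Ptprc, Lyz2 and H2-Aa, for PNx against Sham and NaKtide against scrambled cells, up to 6 called ones in other comparisons, and the 4 largest each way between Sham tissues. Other members were named to complete a role and after their values were seen. Alternatives were DESeq2 1.42.0, other scaling and filters, only the 2 arms compared, the replicate number as a block, an RNA length index as a covariate, the second libraries left out or kept separate, and leaving out libraries singly or those in doubt. The epididymis index, VFAT without Sham 1 and 4 and Heart without PNx 1, 2 and scrambled cells 3 were added after seeing the data. Some genes of the partner list are not reported here.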

Additional observations from a re-analysis of the deposited data

Results flagged for a closer look

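In 105 groups of 4 or 5 samples, the mean level of the members and 6 named members were checked for 1 sample far from the others by Dixon's test at the 95% level, and 15 were marked, where chance marks about 5% of groups. All levels here are log2(CPM + 0.5).

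The mean level of the members stood apart in Heart control cells 1, at 3.80 against 2.07 to 2.44 in the other samples of the arm, in Heart scrambled cells 3, at 4.48 against 2.35 to 2.70, and in VFAT scrambled cells 4, at 7.25 against 4.56 to 4.96. VFAT scrambled cells 4 also stood apart for Csf1r, at 8.93 against 6.56 to 6.78, Adgre1, at 8.30 against 3.86 to 4.51, and Ptprc, at 7.20 against 3.44 to 3.57. Heart scrambled cells 3 stood apart for C1qa, at 6.87 against 4.56 to 5.06, Ptprc, at 4.55 against 1.58 to 2.23, and Lyz2, at 9.06 against 6.56 to 7.17. Lyz2 was also high in Heart control cells 1, at 8.17 against 6.46 to 6.68. Csf1r was high in VFAT control cells 4, at 6.79 against 6.38 to 6.45. H2-Aa was high in Heart PNx 1, at 4.95 against 3.31 to 3.73, and in VFAT Sham 2, at 5.96 against 4.73 to 5.08. On the low side were H2-Aa in Heart scrambled cells 4, at 3.26 against 3.73 to 3.81, and Ptprc in Heart Sham 2, at -0.0977 against 1.68 to 2.09.

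A test of the difference in PNx effect between tissues called Cd52 in VFAT against Heart (log2 -4.81, edgeR adjusted p = 0.0288). Against Kidney it called Cd52 (-5.27, adjusted p = 0.00845) and Trem2 (-3.81, adjusted p = 0.0227) in VFAT. Cd52 in VFAT Sham followed the epididymis markers, so for it partial nephrectomy and epididymal content cannot be told apart. The Cd52 call against Heart was lost in 3 fits without 1 library. Those for Cd52 and Trem2 against Kidney were each lost in 1 such fit.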

How the results depend on the processing

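Of 380 recomputed counts of called members 306 stayed within 1.5 times the value reported. Counts of 0 that stayed 0 are among the 306, so this share says little about the counts above 0. Of 1476 recomputed values of single members 1157 kept direction and side of the threshold, members not called in either fit included. Of the rest 281 lost the call, 8 gained one and 30 changed sign, and the cause was not tested. With DESeq2 the counts were 1 for Heart PNx against Sham, 1 for Kidney NaKtide against scrambled cells, 5 for Kidney scrambled against control cells, 8 for VFAT NaKtide against scrambled cells, 13 for VFAT scrambled against control cells, 3 for the PNx effect in VFAT minus Heart and 2 in Kidney minus Heart, where DESeq2's size factors in edgeR gave 1. Fitting only the 2 arms gave 0 for Kidney PNx against Sham and for both VFAT contrasts with scrambled cells, in fits with fewer samples. The RNA length index gave 0 for Kidney PNx against Sham, 6 for Kidney scrambled against control cells and 11 for VFAT NaKtide against scrambled cells. Without Kidney PNx 3, 4, 5 and control cells 4, 5 the first 2 of these were 0 and 18. Keeping second libraries separate gave 3 in both VFAT contrasts with scrambled cells. VFAT PNx against Sham gave 0 without Sham 1 and 4 and 0 with the epididymis index. Without Kidney PNx 3, 4, 5 and Heart Sham 2, 3 the count was 6 for VFAT Sham against Heart Sham. In that fit it was 0 for the PNx effect in VFAT minus Kidney. Shares of all genes called in the alternative fits are not reported here, so their counts cannot be set against a background.

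Leaving out 1 library gave 0 to 25 calls for Kidney PNx against Sham, 0 to 1 for Kidney scrambled against control cells, 4 to 18 for VFAT PNx against Sham, 0 to 17 for VFAT NaKtide against scrambled cells, 0 to 21 for VFAT scrambled against control cells, 6 to 10 for VFAT Sham against Heart Sham, 0 to 4 for the PNx effect in VFAT minus Heart and in VFAT minus Kidney, and 0 to 3 in Kidney minus Heart. Deviations from the arm means were correlated across genes between samples with the same number, in 15 comparisons within a tissue. In VFAT NaKtide against scrambled cells all 4 pairs were weakly positive, at r of 0.0275 to 0.0970. Each of the other comparisons had a pair with a negative r, and the numbers were taken only as names. Whether a number marks the same animal across tissues was not tested. With the number as a replicate block 15 of 21 counts stayed within 1.5 times, and counts of 0 that stayed 0 are among these. The 6 that moved all had called members in the main fit. They became 12 for Kidney PNx against Sham, 8 for VFAT PNx against Sham and 0 for both VFAT contrasts with scrambled cells. The PNx effect gave 0 in VFAT minus Heart and 1 in VFAT minus Kidney.

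The sign changed as follows, in log2, with the range over fits without 1 library where such a fit changed it. In Heart PNx against Sham, Csf1r ranged from -0.28 (without PNx 1) to 0.61, C1qa from -0.16 to 0.85 and H2-Aa from -0.24 to 0.40, and without PNx 1, 2 and scrambled cells 3 they were -0.45, -0.36 and -0.23. In Heart NaKtide against scrambled cells, Csf1r ranged from -0.60 to 0.21 (without scrambled cells 3), Adgre1 from -0.61 to 0.14, C1qa from -0.53 to 0.39, Lyz2 from -0.68 to 0.23 and H2-Aa from -0.26 to 0.11 (without NaKtide cells 1), and without those 3 libraries the first 4 were 0.21, 0.15, 0.40 and 0.23. In Kidney PNx against Sham, Csf1r ranged from -0.12 (without PNx 3) to 0.49 and Ptprc from -0.36 to 0.090 (without PNx 5). They were -0.024 and 0.39 without PNx 3, 4, 5 and control cells 4, 5, and Ptprc was 0.43 with the length index. VFAT PNx against Sham with the epididymis index gave Fcgr3 -0.40 ± 0.59, Csf1r -0.37 ± 0.63, Adgre1 -2.0 ± 1.12, Ptprc -1.95 ± 1.34 and Lyz2 -0.50 ± 0.83 (SE). The index did not overlap between these arms, so the signs in that fit cannot be read as effects of partial nephrectomy. In VFAT NaKtide against scrambled cells, Cybb ranged from -3.34 to 0.065, Csf1r from -0.99 to 0.23 and H2-Aa from -0.92 to 0.15, each highest without scrambled cells 4. In VFAT scrambled against control cells, Cybb ranged from -0.046 without that library to 3.36.

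Whole tissue holds blood and neighbouring organs, which differ between these libraries. Members of low count, such as Trem2 and Vsig4, rest on few reads per library.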
